A study of Mus musculus with 2 samples.

Results

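The proteases and the pore-forming protein of cytotoxic granules, 9 granzymes and perforin, were read on 2 arrays of cultured mouse CD8+ T cells. The members were chosen by name, as the probe sets whose platform gene symbol is exactly Gzma, Gzmb, Gzmc, Gzmd, Gzmf, Gzmg, Gzmk, Gzmm, Gzmn or Prf1, and each of these 10 genes had 1 such probe set among the 22180 genes measured. In both cultures, naive CD8+ T cells were stimulated on beads coated with anti-CD3 and CD28 antibodies, in recombinant human IL-2 at 100 U/mL. The control culture received DMSO, the solvent, and the treated culture received 30 µM bezafibrate, a fibrate drug and agonist of peroxisome proliferator-activated receptors, for the whole culture. Cells were expanded until day 13; the sources used here name neither the day of RNA extraction nor the strain and age of the mice. There was 1 array per group, so every difference below compares a pair of arrays, has no error and carries no test.

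Cytotoxic T cells kill by releasing granules at the contact with a target cell. Perforin, encoded by Prf1, makes pores in the target membrane, and through them the granzymes, a family of serine proteases, enter the target cell and cleave proteins that lead to its death. Granzymes A and B are the main granzymes of activated mouse CD8+ T cells, whereas granzymes C to G belong to a cluster of closely related genes beside Gzmb that is known from long-stimulated T cells and from natural killer cells of the pregnant uterus.

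Values are log2 signals, so a difference of 1 is a doubling, and the ratio is always bezafibrate minus control. Because probes differ in how strongly they bind their targets, signals were not ranked between genes; each was set instead against 1105 olfactory receptor (Olfr) genes, sensory genes with no known use in T cells. A level at or under the 95th percentile of the Olfr genes, 4.72 in control and 4.74 with bezafibrate, is called within background. Among all genes 53.2% lay above this limit in control and 52.2% with bezafibrate. The Olfr ratios had a median of 0, a robust SD of 0.32 and a range from -1.37 to 1.18. Of the 1105 Olfr genes 43 were at least 1.5-fold higher and 53 at least 1.5-fold lower, which shows the size of difference that dim signals gave between these arrays.

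The CD8 T cell markers matched the labelled cell type. All 8 measured markers were above background on both arrays, with Cd8a at 10.82 and 10.68. Of 4 CD4 T cell markers, Cd4 (3.88 and 4.29) and Cd40lg were within background on both arrays. The other CD4 T cell markers, Foxp3 (4.95 and 5.02) and Zbtb7b (5.22 and 5.48), were above it on both. Natural killer and mast cells also carry granzymes. Of 8 measured natural killer cell markers, 2 were above background in control and 3 with bezafibrate, and Eomes, 1 of these, is also a T cell gene; Ncr1 and Klrb1c, which define those cells, were within background on both. The summed linear signal of this list was 1702 in control and 1713 with bezafibrate, but Eomes carried most of it. Without Eomes it was 192.0 in control and 167.4 with bezafibrate. Fcer1g, the brightest of the rest, went from 6.57 to 5.64, a ratio of -0.93 or 1.90-fold lower, past the 1.5-fold limit. Of all 12120 genes above background on at least 1 array, 0.578% were at least 1.5-fold lower. Of the 7 measured markers other than Eomes, 4 had ratios above 0 and 2 below, where 44.7% and 50% of all genes did. Since 5 of the 7 were within background on both arrays, no direction is read for this list. The highest ratio was that of Klri2, 0.92, with both levels within background. Of 10 mast cell and basophil markers only Kit was above background, and their summed signal was 104.4 and 105.7. The B cell markers Ighm (9.05 and 8.72) and Cd79b (5.41 and 4.85) were above background, whereas Ms4a1, Cd79a and Pax5 were within it on both arrays. The summed signal over the 5 measured markers was 617.2 and 495.3, and Ighm carried most of it. Ighm was read from the brightest of 7 probe sets, whose ratios ran from -0.73 to 0.33. Of the remaining lists, 2 of 9 macrophage and neutrophil, 1 of 3 plasmacytoid dendritic cell and 1 of 2 measured γδ T cell markers were above background on both arrays. The part of other cells in the granzyme signals was not tested, and in a bulk sample fewer cells of a type cannot be told apart from less RNA per cell.

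Gzma, Gzmb, Gzmk, Gzmm and Prf1 were above background on both arrays, Gzmd only with bezafibrate, and Gzmc, Gzmf, Gzmg and Gzmn on neither. The members above background thus numbered 6 on at least 1 array and 5 on both, shares near the 54.6% and 50.7% of all genes. The 4 within background on both arrays all belong to the cluster beside Gzmb. Between the arrays, 1 of the 10 was at least 1.5-fold higher with bezafibrate, Gzmd, and 0 were at least 1.5-fold lower. The Gzmd control signal was within background, and with its difference taken only from the background limit, 1.13-fold, 0 of the 10 reached 1.5-fold. Over all measured genes 1.28% were at least 1.5-fold higher and 1.24% at least 1.5-fold lower. The ratio was above 0 for 4 members and below 0 for 6, against 44.7% and 50% of all genes. The median ratio of the members was -0.05, beside 0.00 for all genes.

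**Figure D1:**
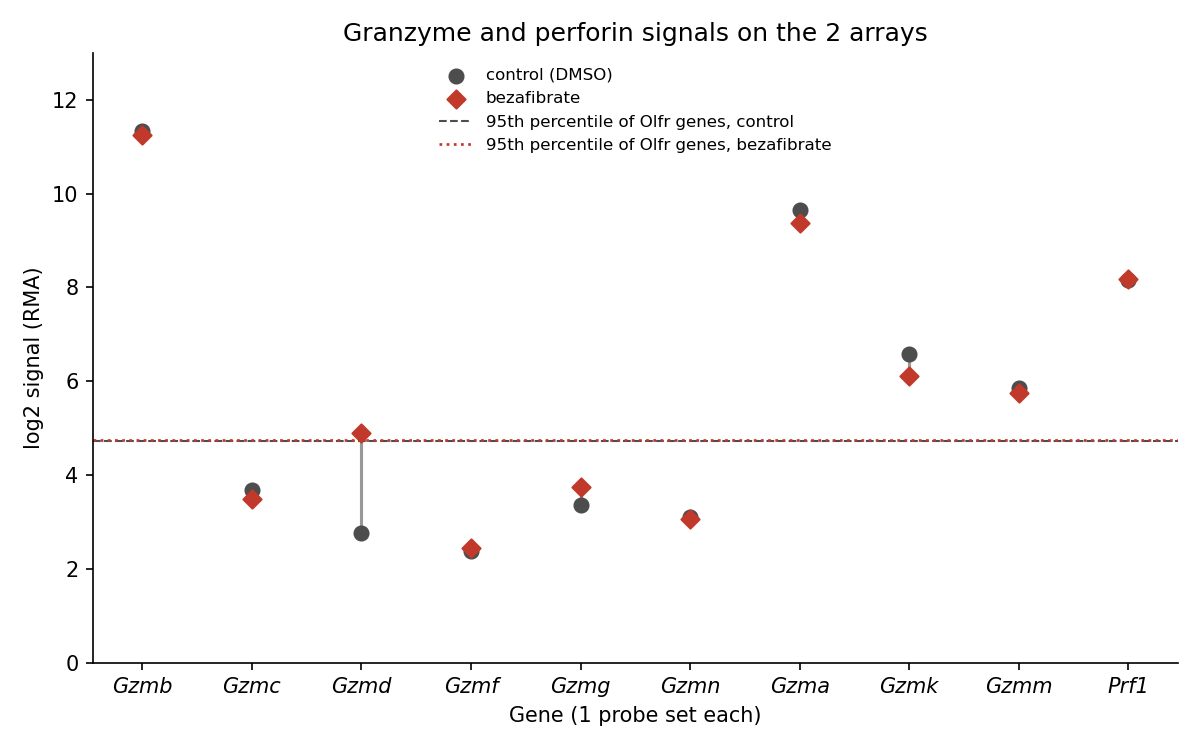
The log2 signal (vertical axis) of each of the 10 genes on the control array (grey circles) and the bezafibrate array (red diamonds), with 1 probe set per gene, 1 array per group and no error bars; the horizontal lines mark the 95th percentile of Olfr genes on each array. Gzmb, Gzma, Gzmk, Gzmm and Prf1 sit above the lines on both arrays, and Gzmd moves from 2.76, under the lines, to 4.90, just over them.

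Granzyme B and perforin, the central pair of the killing machinery, had nearly the same signals on both arrays. Gzmb (probe set 17307033), a protease that cuts after aspartate and activates caspases and Bid in the target, read 11.33 in control and 11.26 with bezafibrate. Its ratio was -0.07, a 1.05-fold lower signal. Both signals exceeded those of all 1105 Olfr genes, and of the 80 genes with a mean level within 0.5 of Gzmb, 32 (Gzmb included) had a ratio at least as low, so the difference was an ordinary one for its level. Prf1 (probe set 17233694) read 8.16 in control and 8.17 with bezafibrate, again above every Olfr gene. Its ratio of 0.01 was the smallest in size among the 10. A further probe set is assigned by the platform to both Prf1 and COX2, read 11.57 and 11.69, and was not counted because its signal cannot be given to 1 gene.

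Granzymes A and K, both trypsin-like proteases and direct neighbours among the protein-coding genes of the RefSeq order, were the members with the lowest ratios. Gzma (probe set 17296286), whose product cleaves components of the SET complex in the target cell, read 9.66 in control and 9.38 with bezafibrate. That is a ratio of -0.27, or 1.21-fold lower, and 46 of 683 genes of like level, 6.73%, had a ratio at least as low. Gzmk (probe set 17296294), a granzyme typical of CD8 T cells with a memory phenotype, read 6.57 and 6.11. Its ratio of -0.47, 1.38-fold lower, was under the 1.5-fold limit, and 35 of 2523 genes of like level, 1.39%, had a ratio at least as low. Both genes were thus above background and lower on the bezafibrate array, with Gzmk nearer the edge of its level class than Gzma. The CD8 T cell markers were also lower there in 7 of 8 cases, where 50.4% of all genes above background on at least 1 array were. Their median ratio was -0.16, with Cd3d at -0.30. Whether this bears on Gzma and Gzmk was not tested.

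Gzmm (probe set 17234917), a granzyme that cuts after methionine or leucine and is known mainly from natural killer and other innate-like lymphocytes, read 5.86 in control and 5.75 with bezafibrate. Its ratio was -0.10. These signals were above the Olfr limit by 1.13 and 1.01, and 99.3% of Olfr genes were lower on the control array. Of 2581 genes of like level, 33.0% had a ratio at least as low, so the Gzmm signal differed little for its level.

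Next to Gzmb, the remaining granzyme genes of its cluster were dim, and only Gzmd had a level above background, on the bezafibrate array. Gzmd (probe set 17306991), a granzyme with few known substrates, read 2.76 in control and 4.90 with bezafibrate. On the control array 57.9% of Olfr genes were lower, whereas on the bezafibrate array 95.8% were. The control signal was within background, so only a bound taken from the background limit can be given for the difference, 1.13-fold higher with bezafibrate. This bound depends on the limit chosen. The bezafibrate signal was 0.16 above the limit of its own array, less than the robust SD of the Olfr ratios, 0.32. The ratio of the signals as deposited was 2.14, a description of the signals with no rank read from it. Counts of members past a fold limit that include Gzmd rest on this ratio, and at its bound Gzmd passes none of the limits. Among 396 Olfr genes with a control level within 0.5 of Gzmd, the ratios ran from -1.37 to 1.12. Even so, 46 Olfr genes (4.16%) read as high as Gzmd or higher on the bezafibrate array, and with the limit at the 99th percentile of Olfr genes (5.62 in control and 5.71 with bezafibrate) Gzmd was within background on both arrays. The further probe set that names Gzmd, together with Gzme, did not cross the limit. It read 2.14 in control and 2.69 with bezafibrate.

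The relatives of Gzmd were within background on both arrays. The only probe set for Gzme, its close copy, is assigned to both Gzme and Gzmd and read 2.14 and 2.69, a ratio of 0.55 with both levels within background. Gzmg read 3.37 and 3.74, a ratio of 0.38, and 6.49% of 4020 genes of like level had a ratio at least as high. Gzmf read 2.38 and 2.43, Gzmn, a granzyme known from testis, 3.11 and 3.07, and Gzmc 3.69 and 3.48. The ratios of these 3 genes, from -0.21 to 0.05, were inside the robust SD of the Olfr ratios. Without Gzmd, the 4 members of this group had a median ratio of 0.01. Probes of such similar genes can bind one another's transcripts, so which transcript a signal in this group came from was not tested.

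In the RefSeq order of protein-coding genes the cluster runs from the mast cell chymase gene Cma1 over Cma2, Mcpt1, Mcpt2, Mcpt9, Mcpt4, Mcpt8 and Ctsg to Gzme, Gzmd, Gzmg, Gzmn, Gzmf, Gzmc and Gzmb. The 8 neighbours before Gzme encode proteases of mast cells, basophils and neutrophils, and all 8 were within background on both arrays, with levels from 1.70 to 3.92. Their ratios ran from -0.58 for Ctsg, a neutrophil protease, to 0.56 for Mcpt1, with 0 at least 1.5-fold different. Of the 14 genes with a probe set of their own, Gzmb alone was above background on both arrays, and Gzmd alone was above it on 1.

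**Figure D2:**
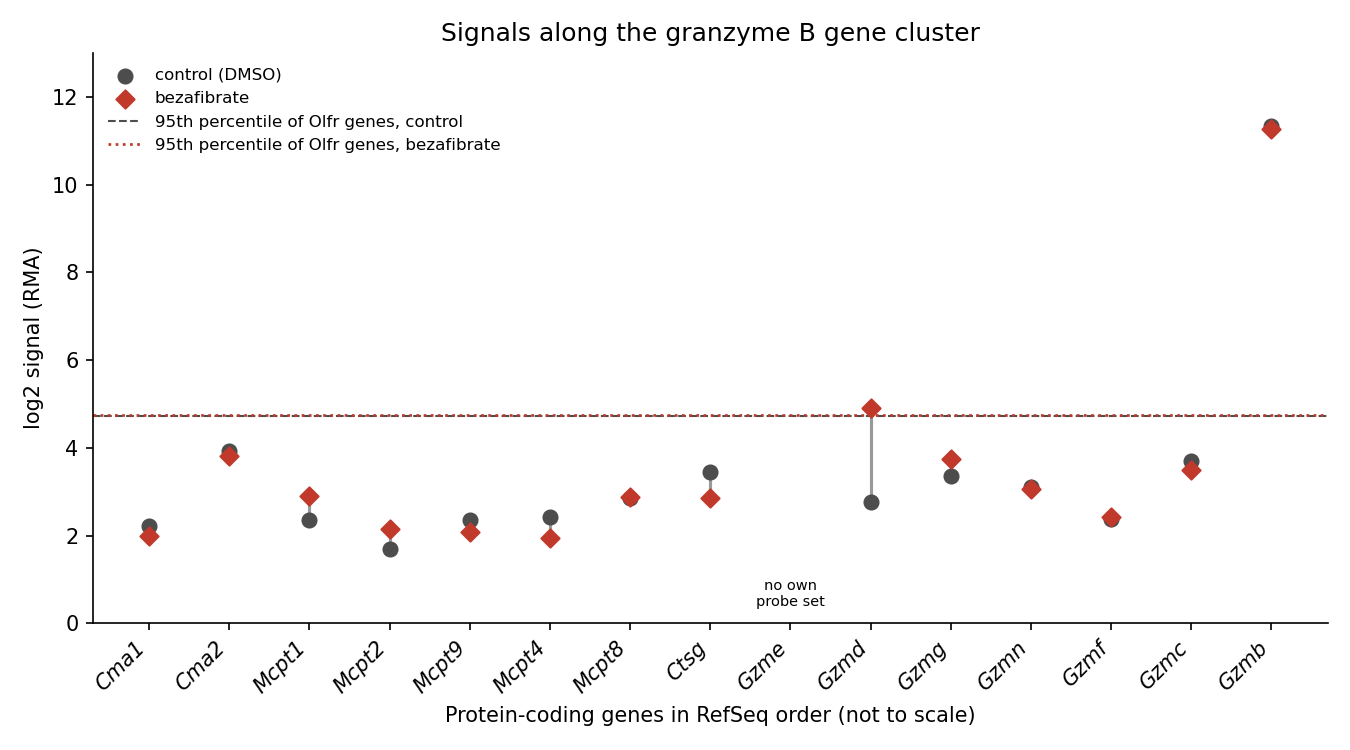
The log2 signals (vertical axis) of the protein-coding genes from Cma1 to Gzmb in RefSeq order, not to scale, on the control array (grey circles) and the bezafibrate array (red diamonds), with 1 array per group; the horizontal lines mark the 95th percentile of Olfr genes. Gzmb at the end of the cluster reads 11.33 and 11.26, Gzmd crosses the lines from 2.76 to 4.90, and the 12 other genes with a probe set lie under them.

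Gzmd and Gzme, which share a probe set, also have nearly the same upstream sequence, and that of Gzmb is unlike both. RefSeq promoter windows of GRCm38.p6, 250 bases before to 50 after a transcript start, were available for all 10 members, and for Gzmm there were 2. No build is named for the array annotation in the sources used here. The 250 bases before the start are printed 5′ to 3′ on the gene's strand, with matches to TGTGGT, a core motif of RUNX factors, or to TGANTCA, the AP-1 motif, in capitals on either strand:
Gzmb (chr14:56262335-56262584, minus strand): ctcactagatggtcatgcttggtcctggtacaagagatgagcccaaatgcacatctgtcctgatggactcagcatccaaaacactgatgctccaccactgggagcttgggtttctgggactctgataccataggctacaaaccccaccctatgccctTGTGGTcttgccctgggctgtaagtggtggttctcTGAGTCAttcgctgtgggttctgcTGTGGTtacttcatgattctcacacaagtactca
Gzmd (chr14:56132594-56132843, minus strand): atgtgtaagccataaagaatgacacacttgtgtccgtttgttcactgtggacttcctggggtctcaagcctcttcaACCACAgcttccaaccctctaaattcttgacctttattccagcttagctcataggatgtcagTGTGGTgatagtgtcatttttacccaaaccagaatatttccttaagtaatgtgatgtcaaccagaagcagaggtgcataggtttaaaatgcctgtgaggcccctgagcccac
Gzme (chr14:56120626-56120875, minus strand): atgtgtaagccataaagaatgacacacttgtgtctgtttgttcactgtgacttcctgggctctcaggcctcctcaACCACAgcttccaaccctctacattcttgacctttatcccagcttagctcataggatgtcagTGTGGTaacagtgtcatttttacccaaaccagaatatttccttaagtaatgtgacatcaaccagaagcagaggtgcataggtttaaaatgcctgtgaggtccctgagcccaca
In a global alignment of the whole windows Gzmd and Gzme were 93.4% identical. The 10 pairs among Gzmc, Gzmd, Gzme, Gzmf and Gzmg ranged from 74.6% to 93.4%, while Gzmb against these 5 had 47.0% to 51.4% and Gzmn 49.2% to 53.0%. Windows of Gzma, Gzmk, Gzmm and Prf1 gave 46.9% to 52.3% against the same 5, with medians of 48.3% for Gzmb, 52.2% for Gzmn and 49.4% for these 4 genes.

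The RUNX motif TGTGGT occurred in 8 of the 11 windows of the 10 members, on either strand, beside 16.8% of all 32851 RefSeq windows. The windows of Gzmc, Gzmd, Gzmf and Gzmg, all among these 8, are alike in sequence, so their matches are not separate occurrences and no enrichment is read from the count. Each of Gzmc, Gzmd, Gzme, Gzmf and Gzmg held 2 matches on opposite strands, 62 bases apart in 4 of them and 66 in Gzmc. Gzmb held 2 on its own strand, starting 93 and 34 bases before the start, with its AP-1 match at 58; AP-1 matches occurred in 7.81% of all windows and in no other member. The T-box motif TCACACC was found in Gzmk and in 1 of the Gzmm windows (3.98% of all windows), and overlapped no RUNX or AP-1 match. For nuclear receptors such as the targets of bezafibrate, the half-site AGGTCA was found in Gzmc, Gzmd, 1 Gzmm window and also Gzme (16.3% of all windows), and the paired form of that half-site with 1 base between (DR1) in 0 of the 11 member windows and in 0.0396% of all. A match describes letters only, and no binding was measured.

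For the 9 members other than Gzmd, the share of genes of like level with a ratio at least as far in the same direction ran from 1.39% for Gzmk to 53.2% for Prf1. At a lower limit, a difference of 0.32 on the log2 scale, Gzmd and Gzmg were higher and Gzmk lower, where 7.33% of all genes were higher and 9.06% lower. At 2-fold, Gzmd passed by its deposited signals, where 0.0902% of all genes did, and 0 members passed with Gzmd at its bound, which is also under the lower limit. The mean of the 10 ratios turned on Gzmd and was 0.14 with it, -0.08 without it and -0.05 with its ratio replaced by the bound, while the median stayed between -0.07 and -0.05.

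**Figure D3:**
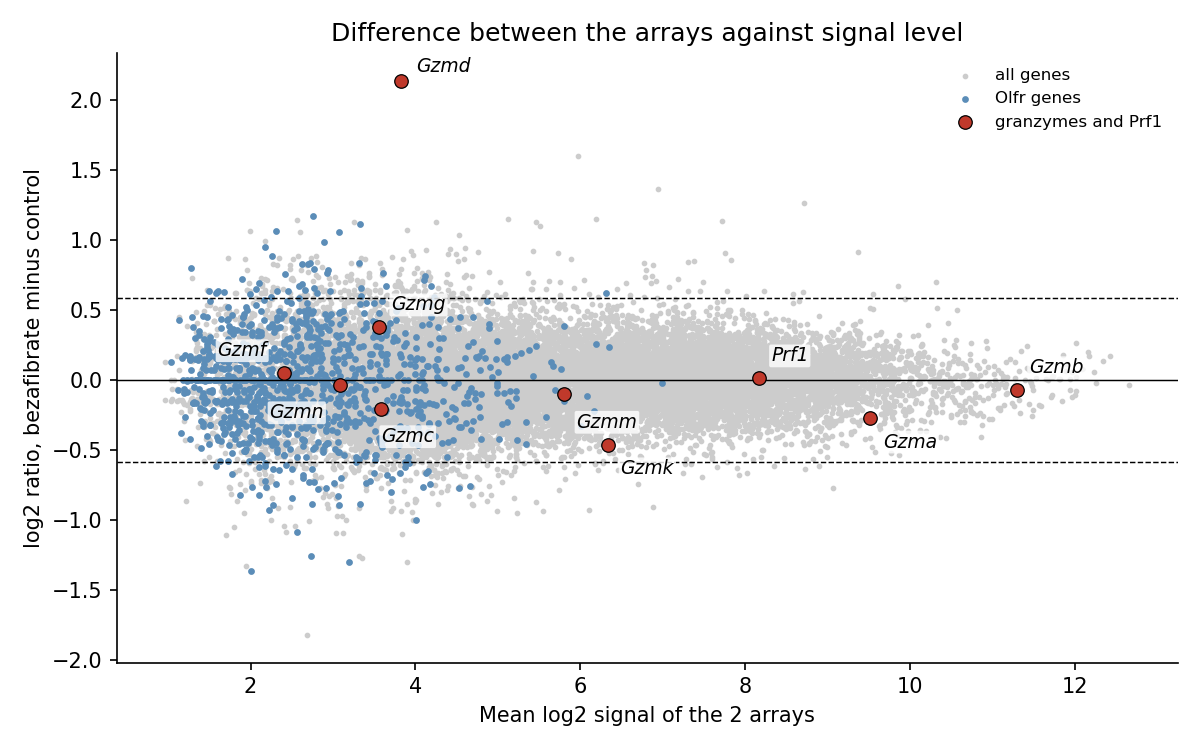
The log2 ratio, bezafibrate minus control (vertical axis), against the mean log2 signal of both arrays (horizontal axis) for all 22180 genes (grey), Olfr genes (blue) and the 10 granzyme and perforin genes (red, named); dashed lines mark a 1.5-fold difference. Gzmd is drawn at the ratio of its deposited signals, 2.14, of which the control signal is within background, and the other 9 lie between -0.47 and 0.38.

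Genes that fill, move and release the granules had small differences. The lists below were fixed by function, and 0 of their genes above background were at least 1.5-fold different, beside 0.693% higher and 0.578% lower of all 12120 genes above background on at least 1 array. Of 14 granule content and processing genes, 12 were above background, and of these 3 had ratios above 0 and 9 below, where 47.6% and 50.4% of all genes above background did. The median ratio over all 14 was -0.08. Lamp1, a membrane glycoprotein of granules and lysosomes, went from 9.16 to 8.84 (-0.32) and Ctsw, a cathepsin of cytotoxic cells, from 10.88 to 10.72 (-0.16). Highest among those above background were Gnptab, which begins the mannose 6-phosphate tag used to sort granzymes, at 7.76 and 7.94 (0.18), and Igf2r, a receptor for that tag, at 8.71 and 8.81 (0.11). Srgn, the proteoglycan on which granzymes and perforin are packed, read 10.21 and 10.15, and Ctsc, the peptidase that activates progranzymes, 8.69 and 8.67.

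All 13 genes of granule exocytosis were above background, 6 with ratios above 0 and 7 below, and the median was -0.01. Lyst, a regulator of lysosome and granule size, read 7.77 and 8.21, the highest ratio at 0.45, followed by Sytl2, a docking protein that binds Rab27a, at 0.30. Vamp8, a membrane fusion protein, read 6.75 and 6.40 (-0.36), and its partner Snap23 had -0.29. Rab27a itself, the GTPase that docks granules, read 9.75 and 9.78. The genes of this list therefore differed in both directions by up to 1.36-fold.

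Of the granzyme inhibitors, 5 of 7 listed genes had a value, all above background. All 5 had ratios below 0, where 50.4% of all genes above background did, with a median of -0.11. Only that of Serpinb1a was past the robust SD of the Olfr ratios, so no direction is read for the list. Serpinb9, which protects the T cell from its own granzyme B, read 8.35 and 8.33, a difference about as small as that of Gzmb. Serpinb1a, an inhibitor of neutrophil serine proteases, read 5.18 and 4.75 (-0.43), ending just above the limit, and Serpinb6b 7.46 and 7.19 (-0.27). The ratios nearest 0 were -0.02 for Serpinb6a and -0.03 for Serpinb9.

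Granzyme targets and their helpers were measured for 11 of 15 genes and had a median ratio of 0.01, with 10 above background. Dffb, the nuclease that cuts DNA in apoptosis, read 6.39 and 5.97 (-0.42), and Nme1, a nuclease that granzyme A releases from the SET complex, 7.61 and 7.25 (-0.36). Among genes above background, Parp1 and Gsdmd had the highest ratios, 0.14 and 0.07. Gsdme, a pore-forming protein cut by granzyme B, had 0.58 with both levels within background. These are signals of the T cell cultures and not of target cells.

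Other killing molecules were even between the arrays. Fasl, the death ligand that kills without granules, read 8.39 on both, and Tnf 10.21 and 10.05; Lta and Tnfsf10 had ratios of 0.07 and 0.08, and Ifng was within background on both arrays. The 9 measured transcription factors of cytotoxic genes were all above background, with a median ratio of 0 and a range from -0.10 to 0.06. Runx3 and Eomes, both regulators of Prf1 and Gzmb in CD8 T cells, read 9.59 and 9.49, and 10.56 and 10.59. Tbx21, which encodes T-bet, read 6.47 and 6.44. The highest ratios were those of Stat5b, a mediator of IL-2 signals, at 0.06 and Id2 at 0.05, and Notch1 had -0.09. Prdm1 and Stat5a held exactly the same value on both arrays, 5.75 and 6.89. Such ties were not particular to this list, since 44.7% of all genes had ratios above 0, 50% below, and the rest a ratio of 0.

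**Figure D4:**
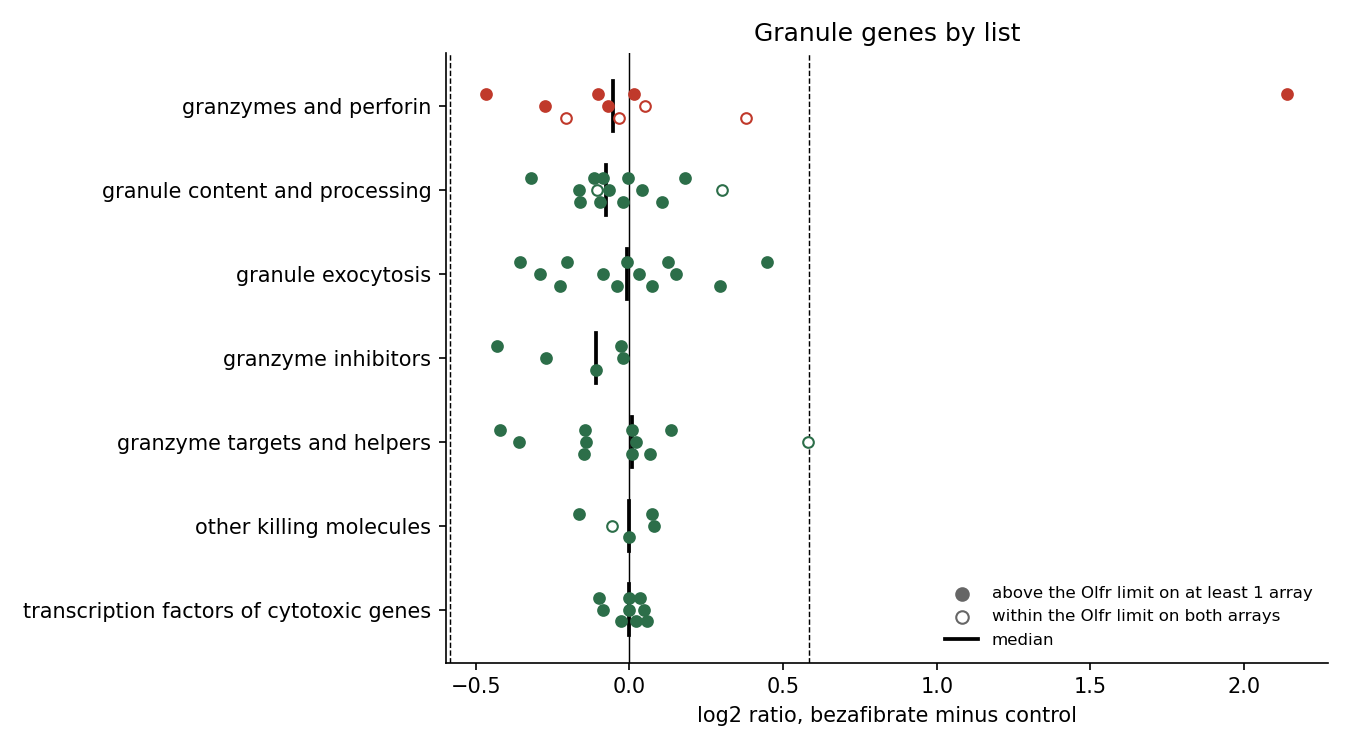
The log2 ratio, bezafibrate minus control (horizontal axis), of each measured gene of 7 lists (rows), with filled points above the Olfr limit on at least 1 array, open points within it on both, a black bar at each list's median and dashed lines at a 1.5-fold difference; points are spread vertically only to be seen. Gzmd, with a control signal within background, is drawn at 2.14, the other points lie inside the dashed lines, and the medians lie between -0.11 and 0.01.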

How the data were processed

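RNA of 2 cultures was amplified with a whole-transcript kit and hybridised to Affymetrix arrays, per the labels' protocols. The authors deposited a log2 signal per probe set, for which the submitters' processing notes name RMA and Affymetrix Expression Console (no version is named in the sources used here). RMA equalises the arrays' signal distributions, so that a shift common to most genes would not be seen, and shrinks differences of dim genes. Depth has no counterpart here, and the number of arrays limits the precision.

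Of 41801 probe sets 33793 had values and 23521 of these named 1 gene, 1814 several and 8458 none. The brightest probe set stood for a gene with several. Genes of like level had a mean within 0.5 of the member's. Named were all members, probe sets shared with another gene, from each list up to 2 genes at either end of the ratios above background, and genes on which a statement turned. Promoters were aligned globally (match 2, mismatch -1, gap opening -3, extension -1). Alternatives were quantile normalization, a loess curve of ratio on level, other probe set rules, limits and folds. The members and lists were chosen with earlier results of these data known. Python 3.11.15, numpy 2.4.6, pandas 2.3.3, scipy 1.17.1, statsmodels 0.14.6, Biopython 1.88 and matplotlib 3.10.9 were used. The 1.5-fold rule was tested on simulated data with the same noise at every level, which does not cover the spread of dim signals seen in the Olfr ratios.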

Additional observations from a re-analysis of the deposited data

How the results depend on the processing

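Of 83 recomputed values over 19 results, 80 stayed within 1.5 times the count, or within 1 robust SD of the Olfr ratios, of the reported value. This share says little about robustness. The probe set rules could not change a member's ratio, because each member had 1 probe set, and RMA had already equalised the signal distributions. The robust SD, 0.32, is also wide beside medians near 0, and it passed the mean of 0.14 beside the median of -0.05. The exceptions concerned the number of members at least 1.5-fold different, 1, which became 3 at a limit of 0.32 on the log2 scale and 0 at the 1.5-fold or 2-fold limit with Gzmd at its bound. The ratio of the deposited Gzmd signals ran from 2.14 to 2.18, that of Gzmk from -0.48 to -0.46 and that of Gzma from -0.28 to -0.27. These ranges cover the reported value and the scaling alternatives. The members above background on either array numbered 6, or 5 with the 99th percentile of Olfr genes as the limit, where Gzmd was within background. The median ratio of the members ran from -0.09 to -0.01 and the mean was 0.14. The alternatives without Gzmd, or with it at its bound, were chosen after seeing the data. No paired analysis was possible because there is 1 array per group, and no replicate could be left out.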

Other observations

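The nearest measured protein-coding genes beside the members outside the granzyme B cluster, chosen after the values were seen, were read the same way. Gzma and Gzmk lie between Gpx8 (4.22 in control and 4.13 with bezafibrate) and Esm1 (4.45 and 4.50), both within background. Gzmm lies between Cdc34, a ubiquitin-conjugating enzyme gene, at 7.61 and 7.30, and Bsg, which encodes the lactate transporter chaperone basigin, at 9.72 and 9.64. Beside Prf1, Adamts14 read 4.80 on both arrays and Pald1 4.72 and 4.68, close to the limit. On the far side of Gzmb, Atp12a was within background at 3.82 and 3.94.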
